A study of Mus musculus with 7 samples.

Results

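The genes described here are 35 members of glucose metabolism: glucose and lactate transporters, the enzymes of glycolysis, lactate dehydrogenases, the pyruvate dehydrogenase E1 subunits and their kinases. Of these, 4 are isozymes of germ cells (Pgk2, Ldhc, Gapdhs and Pdha2) and 31 were treated as somatic. Members were found by probe sets annotated to 1 gene symbol, and each gene was represented by the probe set that was brightest on average. On the larger array design 33 of the 35 members were found among 18194 genes, and on the smaller design 31 among 8252 genes. Gpi1 and Eno1 were not analysed here on either design, nor Pfkfb4 and Slc16a3 on the smaller one. Gapdh was read from the array's own Gapdh control probe sets, since the others naming it also name pseudogenes.

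The study, which by its title concerns the loss of germ stem cells in mice that lack ERM, hybridised mouse RNA to 7 arrays, 1 array for each group. Etv5 encodes ERM, an ETS-family regulator of transcription expressed by Sertoli cells and spermatogonia. On the smaller design were whole testes of wild-type and of ERM knockout mice, both 4 weeks old. On the larger design were primary Sertoli cells of wild-type mice at 4 weeks and of ERM knockout mice at 4 and at 10 weeks, and cells of the TM4 line, which derives from mouse Sertoli cells, without and with transfection of ERM. The labels do not give the number of animals behind an array, the cells in which the knockout acts, the strain or the purification of the Sertoli cells, and no wild-type preparation of 10 weeks was among the arrays.

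Sertoli cells, the nurse cells of the seminiferous tubule, take up glucose and convert much of it to lactate, which they export and on which spermatocytes and spermatids depend. Glucose enters through facilitative transporters, is trapped by hexokinase, committed by phosphofructokinase and ends as pyruvate. Lactate dehydrogenase then makes lactate, and monocarboxylate transporters carry it across the membrane with the help of the chaperone basigin. Meiotic and later germ cells use their own copies of several of these enzymes. Pgk2 and Pdha2 are intronless copies of the X-linked genes Pgk1 and Pdha1, and X-linked genes are silenced during male meiosis. Ldhc lies beside Ldha, and Gapdhs encodes a form of glyceraldehyde phosphate dehydrogenase that is bound to the sperm tail.

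Upstream sequences of the germ cell isozymes are shown because Ldhc, Pdha2 and Pgk2 were among the members past 2-fold between the Sertoli preparations, with Pgk1 and Ldha as somatic counterparts. They are the 250 bases before the most upstream RefSeq start on GRCm38.p6, written 5′ to 3′ on the strand of the gene. Capitals mark the GC box (GGGCGG), the CCAAT box (CCAAT) and the core of the cyclic AMP response element (TGACG), each searched on both strands.
Pgk2 (chr17:40208610-40208859, minus strand): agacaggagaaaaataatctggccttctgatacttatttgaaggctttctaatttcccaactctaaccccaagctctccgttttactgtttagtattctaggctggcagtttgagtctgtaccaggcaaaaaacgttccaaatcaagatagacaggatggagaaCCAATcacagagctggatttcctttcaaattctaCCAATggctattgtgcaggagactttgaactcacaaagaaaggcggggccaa
Ldhc (chr7:46861013-46861262, plus strand): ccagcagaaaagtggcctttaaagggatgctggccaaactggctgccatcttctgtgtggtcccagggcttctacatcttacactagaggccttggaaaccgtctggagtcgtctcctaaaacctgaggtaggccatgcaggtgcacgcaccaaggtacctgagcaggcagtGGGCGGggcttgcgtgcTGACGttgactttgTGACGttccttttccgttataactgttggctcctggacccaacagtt
Gapdhs (chr7:30743682-30743931, minus strand): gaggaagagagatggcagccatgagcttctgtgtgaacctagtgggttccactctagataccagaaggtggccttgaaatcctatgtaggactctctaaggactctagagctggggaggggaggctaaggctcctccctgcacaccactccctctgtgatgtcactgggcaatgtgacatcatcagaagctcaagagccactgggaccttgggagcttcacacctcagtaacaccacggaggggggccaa
Pdha2 (chr3:141212356-141212605, minus strand): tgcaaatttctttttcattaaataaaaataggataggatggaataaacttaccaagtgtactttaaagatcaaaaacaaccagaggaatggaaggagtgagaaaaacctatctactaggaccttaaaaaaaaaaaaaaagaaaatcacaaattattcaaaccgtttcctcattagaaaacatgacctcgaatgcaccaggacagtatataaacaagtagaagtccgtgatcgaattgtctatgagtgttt
Pgk1 (chrX:106186850-106187099, plus strand): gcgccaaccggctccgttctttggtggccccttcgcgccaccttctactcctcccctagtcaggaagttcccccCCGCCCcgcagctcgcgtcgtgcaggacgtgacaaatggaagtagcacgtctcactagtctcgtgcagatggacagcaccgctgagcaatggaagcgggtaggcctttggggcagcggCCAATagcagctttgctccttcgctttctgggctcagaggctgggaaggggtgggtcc
Ldha (chr7:46845554-46845803, plus strand): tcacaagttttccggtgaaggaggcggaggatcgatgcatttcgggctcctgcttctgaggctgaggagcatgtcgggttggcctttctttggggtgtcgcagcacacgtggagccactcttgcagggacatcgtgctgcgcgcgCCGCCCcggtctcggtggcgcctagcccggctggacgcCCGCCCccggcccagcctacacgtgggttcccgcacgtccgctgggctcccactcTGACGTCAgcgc

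Of the 35 members, 32 had an entry in the RefSeq promoter table. The number of CpG dinucleotides in the 250 bases was 1 for Gapdhs, 3 for Pgk2, 4 for Pdha2 and 8 for Ldhc. It was 17 for Pgk1 and 25 for Ldha, with a median of 13.5 over 28 somatic members and of 6 over 27025 genes. A GC box was found upstream of 1 of the 4 germ cell isozymes, Ldhc, and of 15 of 28 somatic members, against 33% of all promoters of this length. The core TGACG, which overlaps itself on the opposite strand where it forms the full palindrome TGACGTCA, was present in Ldhc, in 6 of 28 somatic members and in 17.8% of all. CCAAT was present in Pgk2, in 10 somatic members and in 34.5% of all. ACGTG, the core of the hypoxia response element, was present in 10 somatic members, in none of the 4 germ cell isozymes and in 16.5% of all. CCGGAAG, a sequence that ETS factors can bind, was present in 1 somatic member, Aldoc, in none of the 4 and in 7.07% of all. TATAAA was present in Pdha2, in 1 somatic member, Eno2, and in 13% of all. These matches describe letters in a short window and not binding.

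Values below are scaled intensities, the deposited signal of a probe set multiplied so that the trimmed mean of its array equals 500. Readings below a floor of 100 were set to 100 before ratios were taken, which makes a ratio with 1 such reading a bound. Members with both readings below it have no ratio. With 1 array in each group there was no replicate and no test across samples was possible, so differences were described by size, and 2-fold was used as the mark. The spread between probe sets of the same bright gene gives the only error. Its standard deviation was 0.25 log2 units in testis, 0.20 between the 4-week Sertoli arrays, 0.15 in TM4, 0.25 between the knockout ages and 0.46 between Sertoli cells and TM4. Etv5 was not lower on the Sertoli arrays labelled knockout. The brightest of its 3 probe sets read 709.9 in wild type, 910.1 at 4 weeks and 995 at 10 weeks, and the others were not lower either. The smaller design had no probe set naming Etv5 alone, so Etv5 was not measured in testis. Which exons were deleted is not stated in the labels. Groups are therefore named as the arrays are labelled. The Sertoli cell markers Sox9 and Wt1 read 5220.0 and 3802 on the wild-type Sertoli array and 95.1 and 97.4, below the floor, on untransfected TM4. Of 17 Sertoli markers, 12 were at least 2-fold higher on the wild-type Sertoli array than on untransfected TM4 and 4 at least 2-fold lower. The lower ones, named after their values were seen, were Inhbb (318 against 3833), Amh (322 against 651), Gdnf (238 against 525) and Espn (140.4 against 302). On the wild-type Sertoli array 18 of 19 spermatocyte markers and 18 of 18 spermatid markers were at or above the floor, where 73.8% of all probe sets were. On untransfected TM4 9 of 19 and 10 of 18 were, so reaching the floor does not by itself show germ cell RNA. The summed intensities of both lists were higher on the Sertoli array than in TM4, as given below.

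Each of the 4 germ cell isozymes read lower in the Sertoli preparation labelled ERM knockout at 10 weeks than in that at 4 weeks, Ldhc, Pdha2 and Pgk2 by more than 2-fold. Ldhc, the lactate dehydrogenase of spermatocytes and sperm, read 10048 on the wild-type array at 4 weeks, 6741 on the knockout array at 4 weeks and 1172 on the knockout array at 10 weeks. It was thus high on both 4-week arrays, and the 10-week reading was 5.75-fold below that of the 4-week knockout array. Its other probe set read 7169, 5165 and 839 in the same order. Pdha2, the E1 alpha subunit of pyruvate dehydrogenase in germ cells, read 1375, 825 and 60.4. The last of these lay below the floor, which makes the difference between the knockout ages at least 8.25-fold. Among 15850 genes at or above the floor in that comparison, Pdha2 was number 20 and Ldhc number 52 from the lowest ratio.

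Pgk2, the phosphoglycerate kinase of germ cells, read 383 in wild type, 398 in knockout at 4 weeks and 181 in knockout at 10 weeks. The 4-week arrays were alike for this gene, and the 10-week array was 2.20-fold below the knockout array at 4 weeks, or a log2 ratio of -0.99 with the floor raised to 0.4 of the trimmed mean. Gapdhs read 479.8, 817 and 420.4, so that here the 4-week knockout array stood above both others. Its difference between the knockout ages was 1.94-fold, just within 2-fold. Against the wild-type array the 10-week array differed by a log2 ratio of -0.19 for Gapdhs and of -1.08 for Pgk2. Each of these genes rests on 1 probe set here. Both read higher in untransfected TM4 than on any Sertoli array, at 501 for Pgk2 and 1512 for Gapdhs. How much of their signal comes from germ cells was not tested.

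**Figure D1:**
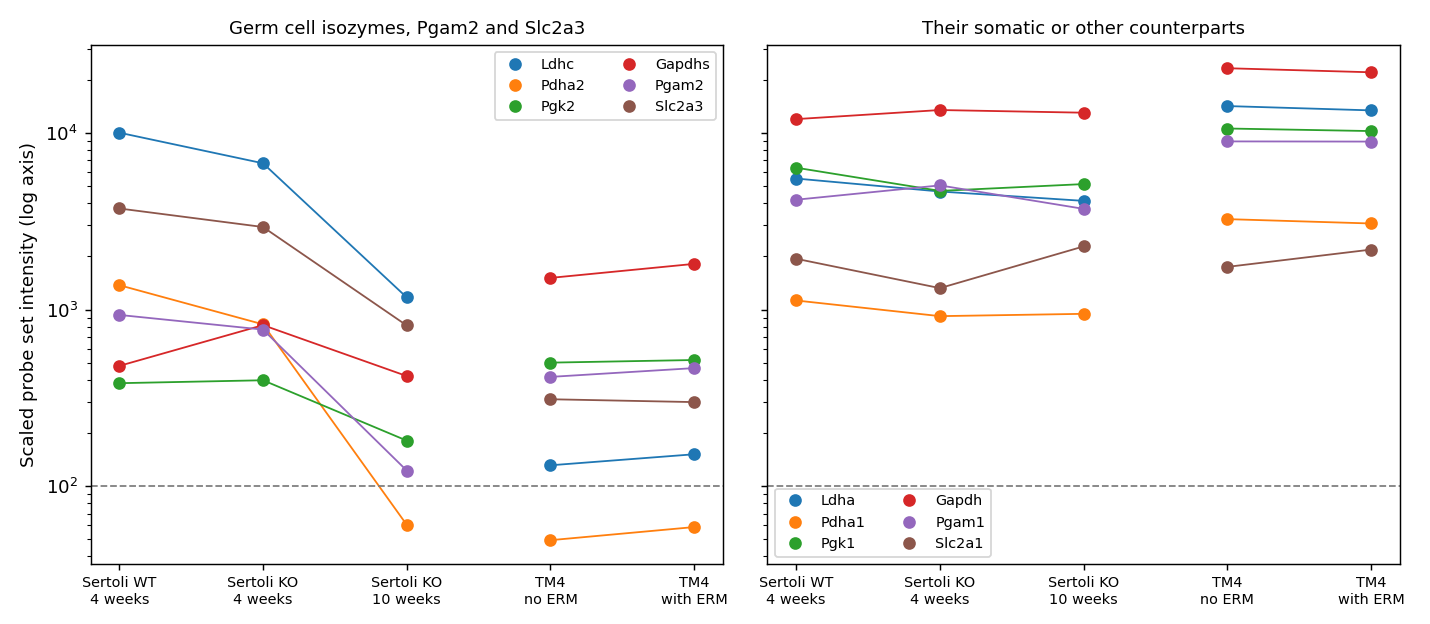
Scaled intensity of the brightest probe set on a log axis for each of the 5 arrays of the larger design, with 1 point for each array, lines joining arrays of the same cells and a dashed line at the floor of 100. The left panel shows the germ cell isozymes with Pgam2 and Slc2a3, which read lower at 10 weeks, for example Ldhc at 1172 against 6741, and the right panel shows their counterparts. Heights of different genes cannot be compared, because probe sets differ in brightness.

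Altogether 5 of the 32 members with a ratio were lower by 2-fold or more at 10 than at 4 weeks, where 3.51% of all genes were, and 1 was at least 2-fold higher, where 4.19% of all genes were. The lower ones were Pdha2, Ldhc and Pgk2 and the somatic members Pgam2 and Slc2a3. Eno2 lay below the floor on all 3 Sertoli arrays. Most spermatocyte and spermatid markers were lower as well. Spermatocyte markers were at least 2-fold lower for 12 of 18 measured, and their summed intensity was 25477 in wild type, 17692 in knockout at 4 weeks and 3124 in knockout at 10 weeks. The synaptonemal complex genes Sycp1, Sycp2 and Sycp3 read 76.3, 121 and 431 at 10 weeks, the first of them below the floor, against 706, 999.8 and 2708 at 4 weeks. Dmc1, also among the first 4 of this list, was slightly higher at 10 weeks. It read 149 there, 137 in knockout at 4 weeks and 115 in wild type, all close to the floor.

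Spermatid markers were at least 2-fold lower for 10 of 18, with sums of 16114, 21339 and 8063 in the same order of arrays. Of the 18, 5 were higher at 10 than at 4 weeks, none of them by 2-fold. Of the protamine and transition protein genes Prm1, Prm2, Tnp1 and Tnp2, none was below the floor on a Sertoli array. Prm1 read 853 at 10 weeks against 4676 at 4 weeks, and Tnp2 132 against 1157. Spermatogonial markers were at least 2-fold lower for 1 of 11, with sums of 9764, 11099 and 7301. Sertoli markers summed to 51516, 60507 and 56263, and 12 of 17 were lower at 10 than at 4 weeks, 2 of them by 2-fold or more. These were Gata1 (864 against 2019.6) and, named after its values were seen, Espn (84.5, below the floor, against 320.2). Leydig cell markers summed to 2529, 3731 and 6214, and macrophage markers to 12481, 5362 and 9059. The 18S ribosomal RNA control (5′ probe set) read 4551 on the 4-week knockout array, the baseline of this comparison, against 349 in wild type and 352 in knockout at 10 weeks. The part of these markers and of the control in the results on the members, Pdk4 included, was not tested. In such preparations fewer germ cells and less RNA per germ cell cannot be told apart. Age, genotype and preparation cannot be told apart either, since the 10-week group has no wild-type partner.

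**Figure D2:**
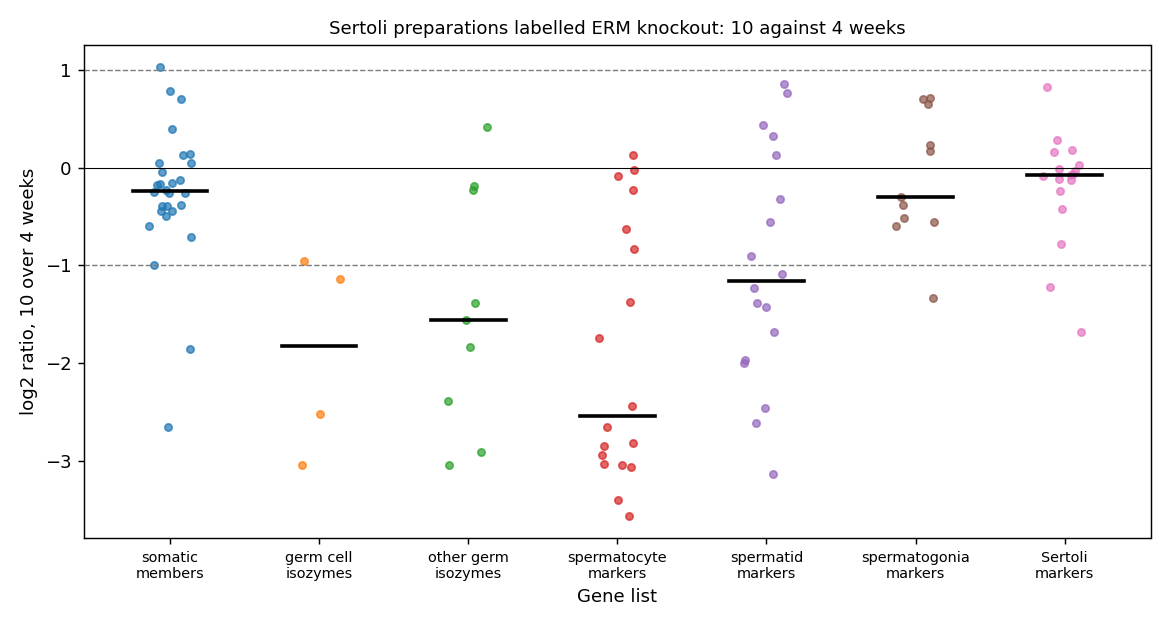
Log2 ratio of the 10-week over the 4-week knockout Sertoli array on the vertical axis, with 1 point for each gene at or above the floor on at least 1 of both arrays, a bar at the median of each list and dashed lines at 2-fold. The germ cell isozymes have a median of -1.83 and the spermatocyte markers of -2.54, whereas somatic members have -0.24 and Sertoli markers -0.08.

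Further isozymes of germ cells were followed as a list of 10 genes, of which 9 were measured. Of these, 6 were at least 2-fold lower at 10 than at 4 weeks and none higher, with a median of -1.56 against -0.03 over all genes. Cyct, the cytochrome c of testis, was 8.25-fold lower at 126 against 1042. Ldhal6b, a further lactate dehydrogenase gene, was 7.53-fold lower at 123 against 924. Gk2, a glycerol kinase of germ cells, was 5.23-fold lower at 124 against 650. The 10-week readings of Cyct, Ldhal6b and Gk2 lay close to the floor, which limits the precision of these folds. Between the 4-week arrays Slc25a31, a mitochondrial carrier of ADP and ATP in germ cells, was 2.15-fold lower in knockout at 904 against 1943 and was the 1 gene of this list past 2-fold there.

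Pairing each germ cell isozyme with its somatic counterpart removes the scale of the array, since it subtracts 1 log2 ratio from another on the same arrays. Between 10 and 4 weeks in knockout, the log2 ratio of the germ cell gene minus that of its counterpart was -2.35 for Ldhc and Ldha, -1.26 for Pgk2 and Pgk1 and -0.91 for Gapdhs and Gapdh. For Pdha2 and Pdha1 it was -3.09, a bound because Pdha2 was below the floor. The counterparts themselves were nearly level. Ldha read 4665 at 4 and 4129 at 10 weeks, Pgk1 4702 and 5139.8, Gapdh 13501 and 13039, and Pdha1 918 and 946. Between the 4-week arrays, knockout against wild type, the pairs went both ways, at -0.33 for Ldhc, -0.44 for Pdha2, 0.49 for Pgk2 and 0.60 for Gapdhs.

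Among members counted as somatic, Pgam2 and Slc2a3 had the lowest ratios between the knockout ages. Pgam2 is the muscle form of phosphoglycerate mutase and is also expressed in late germ cells. It read 933 in wild type, 770.5 in knockout at 4 weeks and 123 in knockout at 10 weeks, a 6.29-fold difference between the knockout ages. Its counterpart Pgam1, the form found in most tissues, read 4191, 5053 and 3720.1. The 10-week array was therefore low for Pgam2 and close to the others for Pgam1.

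Slc2a3 encodes the glucose transporter GLUT3, which has a high affinity for glucose and is found in neurons and in germ cells. It read 3739, 2936 and 813 in the same order of arrays and was 3.61-fold lower at 10 than at 4 weeks in knockout. All 4 of its probe sets lay in that direction, with log2 ratios from -2.06 to -0.97. Slc2a1, which encodes GLUT1, the transporter of most somatic cells, went the other way. Its readings were 1941, 1323 and 2280.1, and its log2 ratio between the knockout ages was 0.79, within 2-fold. Eno3, the muscle enolase, read 320.4, 309 and 155, a 1.99-fold difference between the knockout ages.

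Pdk4 was the 1 member at least 2-fold higher at 10 weeks. It encodes a kinase that switches pyruvate dehydrogenase off and is induced by fasting and glucocorticoids in other tissues. It read 236 in wild type, 215 in knockout at 4 weeks and 439 in knockout at 10 weeks, or 2.04-fold higher on its single probe set. With quantile normalization its log2 ratio was 0.96 in place of 1.03, which is within 2-fold. Pdk1, another of these kinases, read 1854, 1656 and 1481. Pfkfb3, which makes the strongest activator of phosphofructokinase, read 985, 968 and 1578, and both of its probe sets were higher at 10 weeks. Pfkfb4, a related enzyme also expressed in testis, went the other way, at 327, 331 and 244, on 1 probe set.

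Most somatic members were within 2-fold between the knockout ages. Somatic members had a median log2 ratio of -0.24, against -0.03 for all genes, and 25 of 28 were within 2-fold. Hexokinase 2 read 4114 at 4 and 4545 at 10 weeks, aldolase A 5957 and 5077, and pyruvate kinase Pkm 5754 and 4091. Tpi1, triose phosphate isomerase, read 3001 and 1986, with all 3 probe sets lower at 10 weeks. The lactate transporter Slc16a1 (MCT1) read 4715 and 3621, and its chaperone Bsg 2951 and 1808. Slc16a3 (MCT4), the exporter of strongly glycolytic cells, read 196 and 174, close to the floor. Slc16a7 (MCT2), a transporter with high affinity for pyruvate and lactate, read 119.6 and 66.0, the latter below the floor. Ldhb, the heart form of lactate dehydrogenase, read 7772 and 8021. Pdhb, the E1 beta subunit of pyruvate dehydrogenase, read 3030.1 and 2774, and Aldoc, the brain aldolase, 403 and 531.

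**Figure D3:**
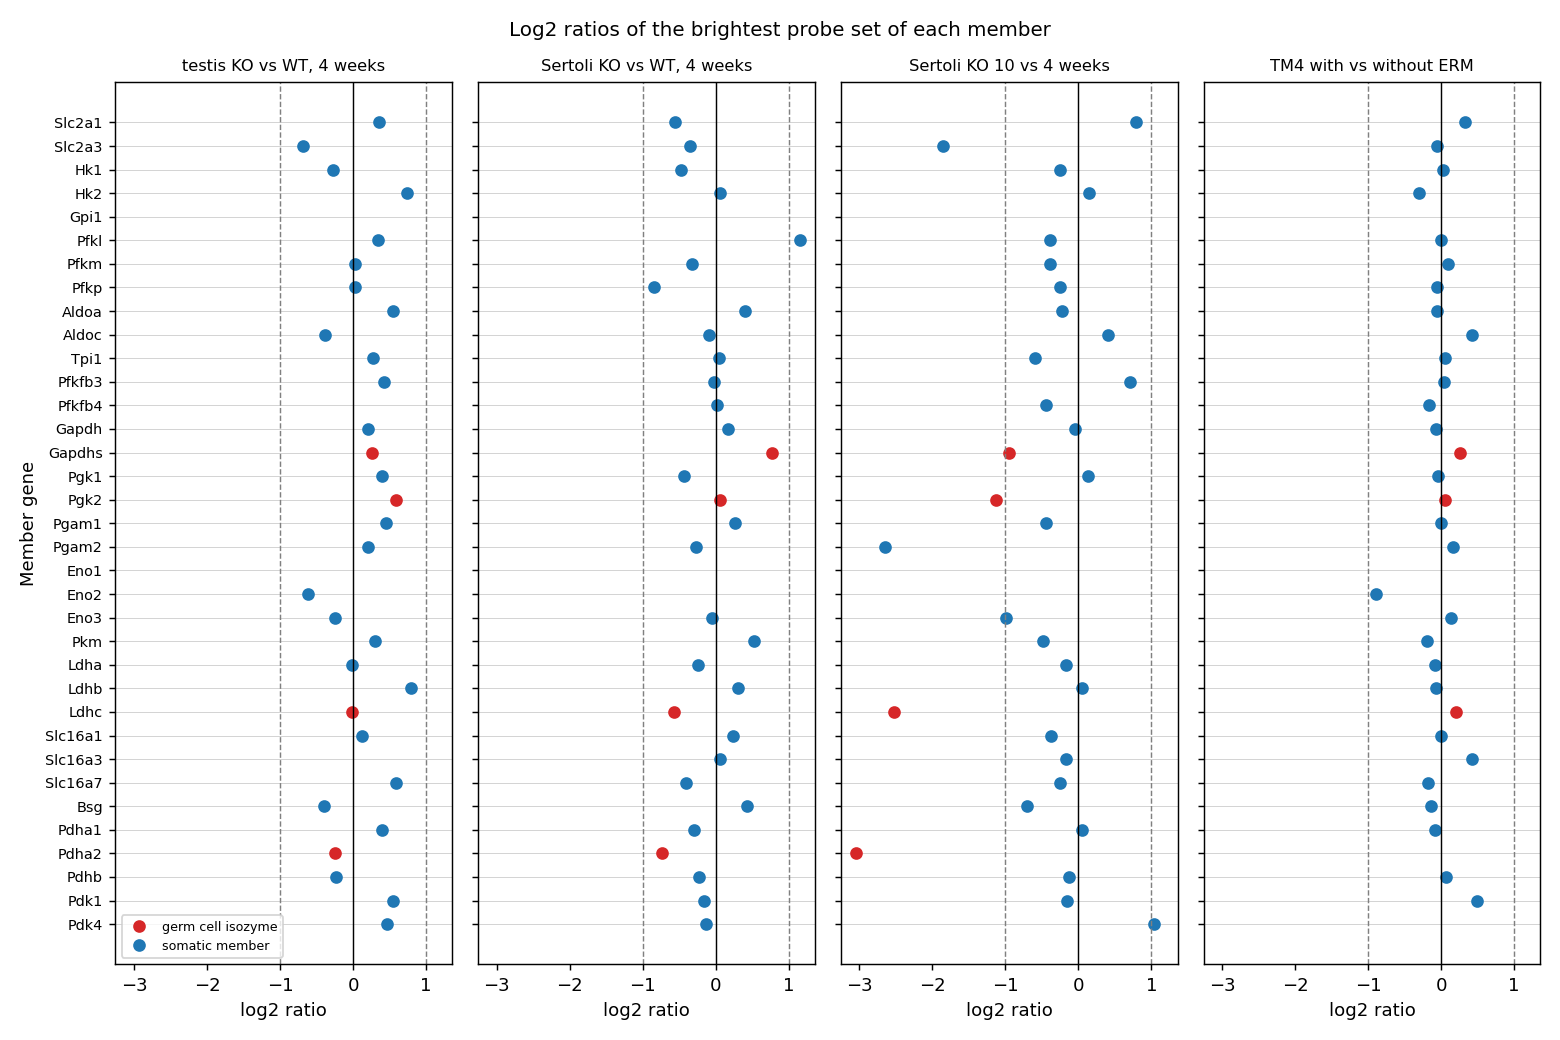
Log2 ratio of the brightest probe set on the horizontal axis for each member, ordered by step of the pathway, in 4 comparisons, with red points for germ cell isozymes, blue points for somatic members and dashed lines at 2-fold. Points past 2-fold are Pfkl (KO over WT Sertoli cells at 4 weeks, 1.15) and, at 10 over 4 weeks, Slc2a3, Pgk2, Pgam2, Ldhc, Pdha2 and Pdk4. Members with no point have no probe set or lie below the floor on both arrays.

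Set against the wild-type Sertoli array at 4 weeks, the 10-week knockout array had 7 of 32 members at least 2-fold lower, where 4.22% of all genes were, and none at least 2-fold higher, where 1.62% of all genes were. This comparison shares its arrays with the comparisons at 4 weeks and of the knockout ages, and age and genotype differ in it together. Pdha2 was at least 13.8-fold lower, Ldhc 8.57-fold, Pgam2 7.61-fold and Slc2a3 4.60-fold lower. Nearer the mark were Pfkp, the platelet form of phosphofructokinase (2.14-fold lower, 107 against 229), Pgk2 (2.12-fold) and Eno3 (2.06-fold). These 3 were within 2-fold when the floor was raised to 0.4 of the trimmed mean. Pfkp was also within 2-fold when its probe sets were averaged, and Eno3 was with quantile normalization. Of the spermatocyte markers 15 of 19 and of the spermatid markers 6 of 18 were at least 2-fold lower in this comparison. Their part in these values was not tested.

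At 4 weeks the Sertoli array labelled knockout differed from wild type by at least 2-fold in 1 of 32 members, which was higher, where 0.681% of all genes were. None was at least 2-fold lower, where 3.18% of all genes were. The median log2 ratio of somatic members was -0.07, against -0.02 for all genes, with 12 above 0 and 16 below. The gene past 2-fold was Pfkl, the liver form of phosphofructokinase, which catalyses the committed step of glycolysis. It read 971 in wild type, 2154 in knockout at 4 weeks and 1640.4 in knockout at 10 weeks, so both knockout arrays stood above wild type. The 4-week ratio was 2.22-fold on this probe set, and its other probe sets had log2 ratios of 0.74 and 0.21. Averaged over the 3 probe sets the log2 ratio was 0.70, within 2-fold. The 18S control was the high one on this knockout array, as given for the knockout ages. Macrophage markers were at least 2-fold lower there than in wild type for 5 of 12. Their part in the Pfkl value was not tested.

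The other phosphofructokinase genes went the other way at 4 weeks. Pfkp read 128 against 229 in wild type, and Pfkm, the muscle form, 324 against 405. Pfkl thus stood higher than Pfkp by 1.99 log2 units in this comparison on their brightest probe sets. The other probe sets were less far apart, with log2 ratios of 0.74 and 0.21 for Pfkl and of -0.42 for Pfkp. The Pfkp reading of 128 lay close to the floor. Further down the pathway Pkm had a log2 ratio of 0.52, Aldoa of 0.40 on its brightest probe set and from 0.00 to 0.42 over 5, and Bsg of 0.43. On the lower side were Slc2a1 (-0.55, with all 3 probe sets below 0) and Pgk1 (-0.44, all 3 probe sets below 0). Hk1 had -0.47 on its brightest probe set and 0.43 on its other, so its direction is unsettled. Of the germ cell isozymes, Pdha2 (-0.74) and Ldhc (-0.58) were lower and Gapdhs (0.77) higher. The germ cell markers were divided in the same comparison, with a median of -0.57 for spermatocyte and of 0.34 for spermatid markers, and the part of that split in these values was not tested.

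In whole testis at 4 weeks no member differed by 2-fold on its brightest probe set, where 0.532% of all genes passed it upward and 0.852% downward on the array labelled knockout. The somatic members read slightly higher there. Their median log2 ratio was 0.27, against -0.01 for all 7516 genes at or above the floor, and 19 of 27 lay above 0, where 47.9% of all genes did. Highest was Ldhb at 1779.8 against 1028 in wild type, a log2 ratio of 0.79 and number 141 from the top of all genes. Hk2 followed with 801 against 482, whereas Hk1, the hexokinase with a variant form in spermatogenic cells, read 2297 against 2791. Slc16a7 read 3087 against 2060.2, Aldoa 4894 against 3355 and Pdk1 679.9 against 467. Each of these lay within 2-fold.

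The lowest member in testis was Slc2a3, which read 2495 in knockout against 4029 in wild type, a log2 ratio of -0.69. Its other probe set read 819 against 2047, a log2 ratio of -1.32 and thus past 2-fold. Slc2a1 went the other way in testis, at 268 against 209.7. Between the 4-week Sertoli arrays both genes were lower in knockout, with log2 ratios of -0.35 for Slc2a3 and -0.55 for Slc2a1. Also in testis, Eno2, the neuronal enolase, read 172 against 263, and Bsg 1671 against 2193. The germ cell isozymes divided in direction here. Pgk2 read 3394 against 2267 in wild type, and Gapdhs 9776 against 8171 with both probe sets above 0. Ldhc was level at 9171 against 9229, and Pdha2 was lower at 1955 against 2324.

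Cell type markers differed between the testis arrays as well. Spermatid markers summed to 98699 on the knockout array and 82422 in wild type, with 14 of 16 above 0. Spermatocyte markers summed to 8135 and 11446, with 5 of 6 below 0, and Sertoli markers to 18738 and 15452. Macrophage markers summed to 5976 and 4447, with a median log2 ratio of 0.38 and 10 of 12 above 0. Leydig cell markers summed to 9844 and 8383, with a median of 0.28 and 6 of 7 above 0. Of the fibroblast and peritubular markers 2 of 10 were at least 2-fold higher. Their part in the values of the members was not tested. The smaller and the larger array design use different probes, so readings in testis and in Sertoli cells were not compared.

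**Figure D4:**
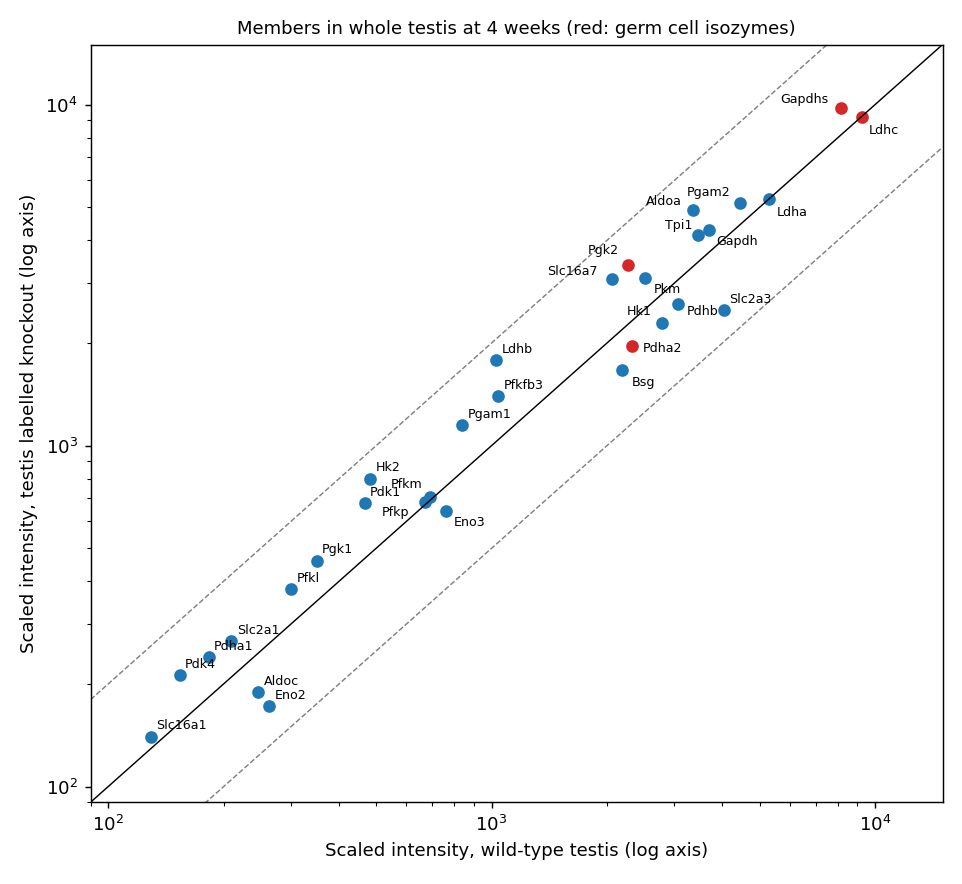
Scaled intensity of each of the 31 members on the testis array labelled knockout (vertical, log axis) against wild type (horizontal, log axis), with a solid line at equality, dashed lines at 2-fold, red points for germ cell isozymes and blue points for somatic members. All points lie between the dashed lines. Most somatic members lie above equality, with Ldhb at 1779.8 against 1028, and Slc2a3 lies below it.

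In TM4 cells no measured member differed by 2-fold between the arrays with and without transfection of ERM, where 0.303% of all genes passed it upward and 0.421% downward. Etv5 itself read 473 with and 405 without ERM on its brightest probe set, and all 3 of its probe sets were within 2-fold. How far the transfection raised ERM was not tested. Somatic members had a median log2 ratio of -0.03, against 0.004 for all genes. Eno2 was furthest from 0, at 249 with and 463 without ERM, a log2 ratio of -0.89 and number 103 from the lowest of 16159 genes. On the other side stood Pdk1, at 1414 with and 1005 without, and its other probe sets had log2 ratios of 0.12 and 0.17. Aldoc read 448 and 335, and Slc2a1 2188 and 1746. For Pdha2 and Pdk4 both TM4 readings were below the floor. The lactate dehydrogenases Ldha and Ldhb read 13439 and 594 with ERM and 14218 and 622 without.

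Primary Sertoli cells and the TM4 line differed by 2-fold in more members than the other pairs of arrays did, as they did across all genes. Between wild-type Sertoli cells and untransfected TM4, 8 of 33 members were at least 2-fold higher in Sertoli cells, where 17.8% of all genes were, and 13 were at least 2-fold lower, where 16.1% were. Without scaling, the median of all genes shifts by 0.68 log2 units towards Sertoli cells, and the counts become 11 higher and 4 lower. The split between higher and lower members therefore depends on the scaling, and the values that follow are relative to the trimmed mean of each array. Animals and a cell line differ in many ways besides.

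The lactate dehydrogenase genes went in different directions. Ldha, the muscle form, read 5525 in Sertoli cells and 14218 in TM4, whereas Ldhb read 6279.5 and 622, with 4 probe sets in the same direction. Ldhb thus stood higher than Ldha by 4.70 log2 units in Sertoli cells relative to TM4, a value that a common scaling of an array does not alter. Ldhc read 10048 in Sertoli cells and 131 in TM4 on its brightest probe set, and 7169 and 1775 on the other, so that the log2 ratio was 6.26 or 2.01. Its level in TM4 is therefore unsettled between probe sets. Pdha2 was at least 13.8-fold higher in Sertoli cells, whereas Pdha1 read 1126 there and 3254 in TM4. Gapdhs went the other way, reading 479.8 in Sertoli cells and 1512 in TM4, and Pgk2 read 383 and 501. Germ cell markers were higher on the Sertoli array than in TM4, with spermatocyte sums of 25477 and 2635 and spermatid sums of 16114 and 6405. Their part in these values was not tested.

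At the entry of glucose, Slc2a3 read 3739 in Sertoli cells and 311 in TM4, a log2 ratio of 3.59, and Slc2a1 was close at 1941 and 1746. Hk2 was 2.37-fold higher in Sertoli cells (3933 against 1659), and Hk1 read 1158 against 1843. Relative to TM4, Hk2 stood higher than Hk1 by 1.92 log2 units. Pfkfb3 was 5.21-fold higher in Sertoli cells on its brightest probe set. Its other probe set read 429 against 274, a log2 ratio of 0.65 and within 2-fold. Pfkfb4 was 2.01-fold lower, at 327 against 655, and within 2-fold with ratios centred on the median gene.

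From phosphofructokinase down to lactate dehydrogenase A, most members read lower in Sertoli cells than in TM4, in the upper and in the lower part of glycolysis. In the upper part Pfkp was 5.60-fold lower and Tpi1 3.97-fold lower (log2 ratios from -2.41 to -1.99 over 3 probe sets). Aldoa, which read 4509.9 against 9056, was within 2-fold on the values as deposited, with ratios centred on the median gene, with quantile normalization and with probe sets averaged. In the lower part Eno3 was 10.8-fold lower (320.4 against 3465). Eno2 was at least 4.63-fold lower. Pgam1 was 2.14-fold, Pkm 2.40-fold and Ldha 2.57-fold lower, and these 3 were within 2-fold on the values as deposited and with quantile normalization. Pgam2 went the other way and was 2.24-fold higher in Sertoli cells. Among the exporters of lactate, Slc16a1 was close at 4018 and 3530.2, while its chaperone Bsg was 3.04-fold lower at 2195 against 6664. Slc16a7 was 2.60-fold lower in Sertoli cells and Slc16a3 read 187 against 117. On the values as deposited Bsg, Slc16a7, Pdha1, Gapdhs and Pfkfb4 were within 2-fold as well.

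**Figure D5:**
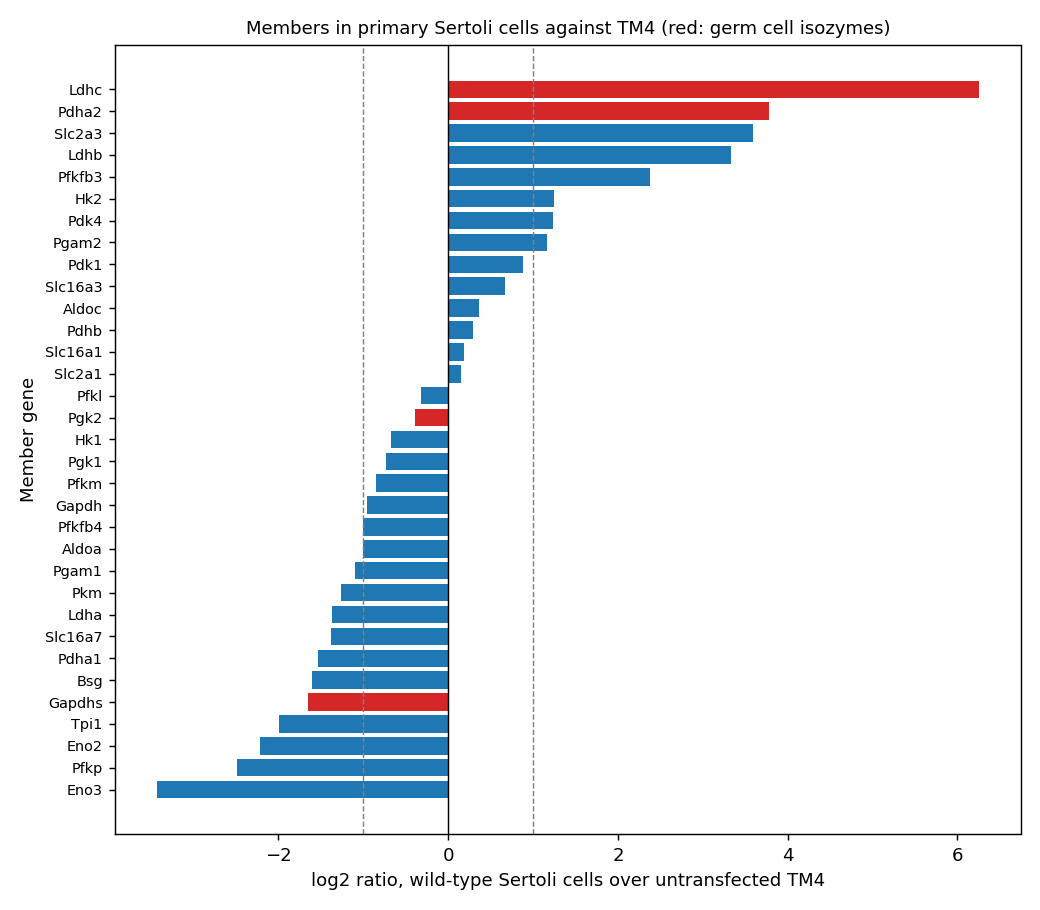
Log2 ratio of wild-type Sertoli cells at 4 weeks over untransfected TM4 as bars, 1 for each of the 33 members, sorted by value, with red bars for germ cell isozymes, blue bars for somatic members and dashed lines at 2-fold. Ldhc (6.26), Pdha2 (3.78), Slc2a3 (3.59) and Ldhb (3.34) lie highest and Eno3 (-3.44) lowest, and the bars of Pdha2, Eno2 and Pdk4 are bounds.

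Neighbouring pathways were described by lists of their other genes, to be read against the 3.51% of all genes at least 2-fold lower and the 4.19% higher between the knockout ages. Between the knockout ages, 2 of 34 other genes of glycolysis, pyruvate and glucose transport were at least 2-fold lower and none higher. These were Gpd1, a glycerol phosphate dehydrogenase, at 1612 at 10 and 3309 at 4 weeks, and Pklr, the liver pyruvate kinase, at 196 and 441, which was named after its values were seen. Of 13 genes of gluconeogenesis and glycogen, 1 was lower and 1 higher, the lower one being Fbp1, a fructose bisphosphatase, at 364 against 1169 and, in wild type, 2087. The higher one, also named after its values were seen, was Gys1, a glycogen synthase, at 325 against 144. None of 10 pentose phosphate genes and none of 21 genes of the TCA cycle differed by 2-fold. Of 18 hypoxia response genes 1 was higher, P4ha2, a prolyl hydroxylase of collagen, which read 607 in wild type, 228 in knockout at 4 weeks and 761 at 10 weeks. The 4-week knockout array, on which the 18S control was high, was the low one for P4ha2, and the part of that control was not tested.

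At 4 weeks in Sertoli cells, P4ha2 was 2.66-fold lower in knockout and was the 1 of 19 hypoxia response genes past 2-fold. The medians of the 5 lists of somatic pathways lay between -0.03 and 0.08 in that comparison. In testis they lay between -0.06 for the TCA cycle and 0.17 for the hypoxia response, below the 0.27 of the somatic members. In TM4 with against without ERM no gene of these lists differed by 2-fold. Between Sertoli cells and TM4, 17.8% of all genes were at least 2-fold higher in Sertoli cells and 16.1% lower. Of 19 hypoxia response genes 7 were higher and 1 lower, and of 11 pentose phosphate genes 3 and 2. Of 34 other genes of glycolysis, pyruvate and glucose transport 7 were higher and 5 lower. Of 14 genes of gluconeogenesis and glycogen 3 were higher and 2 lower, and of 21 TCA cycle genes 2 and 4. Among single genes, Epas1, which encodes the hypoxia factor HIF-2 alpha, was 12.2-fold higher in Sertoli cells, and the pentose phosphate gene Taldo1 3.18-fold higher. Slc2a4, which encodes the insulin-responsive transporter GLUT4, was 9.55-fold lower, and Emb, embigin, a relative of basigin that also escorts lactate transporters, 7.07-fold higher.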

How the data were processed

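RNA of 7 samples was measured on single-colour Affymetrix arrays of 2 designs with 45101 and 12488 probe sets. The authors deposited intensity values for each probe set, and the sources used here name neither the software nor the scaling. Gene names came from GEO's platform annotation.

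Each array was scaled to a trimmed mean of 500 between the 2nd and 98th percentiles of its non-control probe sets, from deposited trimmed means of 183 to 299 on the larger and of 468 and 477 on the smaller design. Log2 ratios used a floor of 100 (0.2 of the trimmed mean), and bright means 500 or above. The number of arrays limits the precision. Probe sets naming several genes (932 and 396) or none (9160 and 1193) were left out, and Gapdh alone was read from control probe sets. In the 6 comparisons no test was made. The text names all members and, of each other pathway list, up to 3 genes past 2-fold in a comparison that reached 500 on 1 array and whose detected probe sets went 1 way. It also names Etv5 and, of some cell type lists, markers among the first 4. Not all of these were named, so the named markers are not a complete set. The members and lists were chosen with earlier results of these data known. The 7 alternatives were the values as deposited, centred ratios, quantile normalization, floors at 0.1 and 0.4, averaged probe sets, and omission of cross-hybridising ones. Steps were tested on simulated data. Promoter sequences are RefSeq's, GRCm38.p6. Python 3.11.15, numpy 2.4.6, pandas 2.3.3 and matplotlib 3.10.9 were used.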

Additional observations from a re-analysis of the deposited data

Results flagged for a closer look

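For Pgk2 the testis array and the 10-week Sertoli array labelled knockout lay on opposite sides of their wild-type arrays. Its log2 ratio to wild type was 0.58 in testis at 4 weeks and -1.08 in Sertoli cells at 10 weeks, a difference of 1.66. The age-matched Sertoli knockout array at 4 weeks was level with wild type, at a log2 ratio of 0.06. For Slc16a7 the ratios were 0.58 in testis and -0.67 in Sertoli cells, a difference of 1.25, where the 10-week reading of 66.0 lay below the floor, and the 4-week Sertoli ratio was -0.41. Both were listed because each ratio exceeded 2 standard deviations between probe sets and their signs were opposite. That spread was taken from bright genes within a pair of arrays and does not measure differences between samples. Neither gene was bright on the Sertoli arrays compared. Pgk2 read 383 in wild type and 181 in knockout at 10 weeks, and Slc16a7 159 and 66.0. The rule therefore does not show that these ratios exceed the noise at such readings. The differences were not tested, each rests on 1 array a group, and the Sertoli comparison sets 10-week cells against 4-week wild type.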

How the results depend on the processing

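Counts of members past 2-fold and medians of somatic members were recomputed under 7 alternatives in 6 comparisons. Of 126 such values 117 stayed within 1.5 times the count or within 0.1 of the median, and 9 did not. With the mean over probe sets, the members at least 2-fold lower in testis numbered 1 in place of 0 (Slc2a3, log2 ratio -1.01), and those higher in Sertoli knockout at 4 weeks 0 in place of 1. With quantile normalization, 0 was at least 2-fold higher at 10 than at 4 weeks in place of 1. With the floor at 0.4, 4 were lower at 10 weeks against wild type in place of 7. For Sertoli cells against TM4, the values as deposited gave 4 lower members in place of 13, and the median of somatic members was -0.034 as deposited, -0.44 with quantile normalization, -0.85 with the mean over probe sets and -0.85 without cross-hybridising probe sets, against -0.74. The cause of these shifts was not tested. Among single genes 1420 values stayed within the probe set spread, 122 did not, and none past 2-fold turned in direction. Leaving out a replicate could not be done, and signals near the floor limit Pfkp, Pdk4, Slc16a3 and Slc16a7. The same holds at 10 weeks for Pgam2, Cyct, Ldhal6b and Gk2. No paired analysis was possible because each group has 1 array.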

Other observations

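Some members gave different answers on different probe sets. Hk1 had a log2 ratio of -0.47 on its brightest probe set and of 0.43 on the other in Sertoli knockout against wild type at 4 weeks, and of -0.67 and -2.18 in Sertoli cells against TM4. Pdk1 had -0.16 on its brightest probe set in the 4-week comparison and 0.62 and 0.52 on 2 others. In untransfected TM4 Ldhc read 131 on its brightest probe set and 1775 on the other, whereas on the Sertoli arrays both were bright.

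Aldoart2, an aldolase gene of germ cells, read 2048 and 2215 in TM4 without and with ERM, and 94.2, 114 and 53.1 on the Sertoli arrays (wild type, knockout at 4 and at 10 weeks). With Gapdhs and Eno4, an enolase of sperm named after its values were seen (1038 in untransfected TM4 and 135 in wild-type Sertoli cells), it was thus brighter in the cell line than in the Sertoli preparations, against the direction of Ldhc, Pdha2, Cox6b2 and Slc25a31. In testis Aldoart2 read 2015 in knockout and 1351 in wild type, while Cyct read 417 and 600.1.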
